A study of Drosophila melanogaster with 12 samples.

Results

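B2 is 1 of 3 *upSET* mutant clones of the S2-DRSC cell line, and its nascent RNA was compared here with that of the unedited S2 cells. The comparison rests on 4 samples of the 12 in the series, 2 B2 libraries and 2 S2 libraries, which were taken by their labels. The lesion of B2 is a 1 bp deletion that shifts the reading frame after 367 wild-type residues of UpSET, while S2 is labelled wild type. The other mutant clones, used here for comparison, are G3, with a 67 bp deletion that takes the start codon, and A7, with a pair of 7 bp deletions near the start codon, and each has 2 libraries of nascent RNA. The 4 remaining samples are ChIP-seq of embryos and were not analysed here. S2 cells are a polyploid male line derived from late embryos, and B2 was grown from a single sorted cell. All 4 lines were grown in the same medium. An effect of the *upSET* lesion, of the guide, and of the choice of 1 cell cannot be told apart in 1 clone.

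UpSET is a SET domain protein, the *Drosophila* homologue of yeast SET3, and is known to work with histone deacetylases around the start sites of active genes. Nascent RNA is the RNA held by RNA polymerase II on chromatin, so its reads follow transcription, introns included, more closely than those of mature RNA do. In the polyploid cells studied here, a change in the number of copies of a gene and a change in its transcription per copy cannot be told apart.

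The guide that made the B2 lesion is shown because the deletion lies at its target, with the protospacer in lower case and the PAM in capitals:
target 7: acagcagatcagcctaccgcAGG
This target lies on the + strand at 3L:14002035-14002057, by the coordinates given with the oligonucleotides, whose assembly is not named. It is inside CG9007, the name of *upSET* in the count files, whose extent in the dm3 assembly of these files runs on 3L from 13995223 to 14013251. The target starts 6812 bp after the start of that extent. The notes given with the oligonucleotides place it in exon 1, without saying whether noncoding exons are counted. It is 1081 bp beyond target 1, which was used for the other clones and is near the start codon.

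Sense reads of each gene were counted by the authors, and levels are given as CPM, counts scaled to a common library size after TMM normalization. The log2FC of a gene is its fitted log2 fold change, B2 over S2 unless another line is named. The 2 libraries of a line are called replicates 1 and 2, and the libraries with the same replicate number form a series. Sense counts came to 8778879 and 4738785 in B2, against 8333319 and 5375494 in S2. A floor of 3 counts corresponds to 0.342 to 0.633 CPM in these 4 libraries, scaled here to the sense counts without TMM, and reflects counting error alone. The libraries differed in the number of genes with 0 sense counts, which was 3545 and 5445 in B2, against 1997 and 5321 in S2, so that S2 replicate 1 had reads on more genes than the other 3. A gene was tested if it had at least 1 CPM in at least 2 of the 8 nascent RNA libraries, which kept 9612 of 15998 genes. The series was a block in the fit, and genes with an adjusted p under 0.05 in edgeR's quasi-likelihood test were called. The labels do not say whether the 2 libraries of a line came from separate cultures, so the p-values measure the spread between these libraries only. As S2 cells are a line of hemocyte character, markers of that cell type were checked: *ush* (15612 and 12326 CPM in B2, against 12584 and 12004 CPM in S2) and *srp* (1018 and 1084 CPM in B2, against 1143 and 995 CPM in S2) had reads in every library, while *nimC1* and *He* were at or below 1 CPM in all 4. The summed level of the 13 hemocyte markers was 18616 and 15368 CPM in B2, against 15890 and 14819 CPM in S2. Most of this sum was *ush*, while *Hml* was at or below 2.20 CPM in each of these libraries. Of the hemocyte markers, 1 was called, *Cg25C*. The summed levels of neuron, glia, muscle, germ line, and fat body markers ran between 1.28 and 89.2 CPM in B2 and between 1.59 and 102 CPM in S2. Those of epithelium, 6 genes, summed to 1403 and 1263 CPM in B2, against 1339 and 1267 CPM in S2. Their part in the results was not tested, and in bulk samples a change in the share of cells that transcribe a gene and a change in transcription per cell cannot be told apart.

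The transcription of *upSET* itself, on 3L from 13995223 to 14013251, was not called changed. CG9007 had 665 and 679.9 CPM in B2, against 544 and 567 CPM in S2, a log2FC of 0.27 (standard error 0.12, adjusted p = 0.489 from edgeR). Both B2 libraries were above both S2 libraries, and the unadjusted p was 0.0424. A 1 bp deletion cannot be seen in gene counts, so these values do not check the label. The long noncoding RNA *roX1*, a part of the MSL dosage compensation complex of males, had 15.1 and 49.2 CPM in B2, against 15.2 and 13.6 CPM in S2. B2 replicate 2 was high and B2 replicate 1 was at the level of S2, and the log2FC was 1.07 (standard error 0.55, adjusted p = 0.563 from edgeR).

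Of the 9612 genes tested, 41 were called, which is 0.427% of them. Of these, 30 were higher in B2 (0.312%) and 11 were lower (0.114%). The genes of the germ line piRNA pathway *rhi*, *del*, and *AGO3*, the collagen gene *Cg25C*, and the heat shock genes *Hsp68* and *Hsp22* were among those that rose, while the adenylyl cyclase gene *Ac3*, the piRNA gene *SoYb*, and the secretion gene *Caps* were among those that fell. The log2FC of the risers ran between 0.67 and 3.90 with a median of 1.83, and that of the fallers between -9.45, a fitted value for *CG5568* with its 0 counts in B2, and -0.60, with a median of -1.94, beside a median of -0.03 over all tested genes. Several called genes overlap each other, so that the 30 risers lie at 25 loci and the 11 fallers at 8. All 41 had the same sign in both series, as did 5479 of the 9612 tested genes. The 41 were called from these same libraries, so this agreement is no separate evidence. Both B2 libraries were above both S2 libraries for 25 of the 30 risers, as they were for 13.1% of all genes, and both were below for 10 of the 11 fallers, as they were for 13.3% of all genes. The exceptions were *CG10006*, *Hsp22* and *Hsp67Bb*, *mgl*, and *Hsp68* among the risers and *mgn00487* among the fallers, for which the libraries of the lines overlapped. At an unadjusted p under 0.05, 944 genes (9.82%) differed, 442 of them higher in B2 (4.60%) and 502 lower (5.22%). These calls depend on the block, since 1 gene, *del*, was called without it. They depend on the B2 and S2 libraries as well: 0 genes were called without B2 replicate 1 (483 at an unadjusted p under 0.05), 3 without B2 replicate 2, 23 without S2 replicate 1, and 79 without S2 replicate 2, of which 18 were higher and 61 lower in B2.

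**Figure D1:**
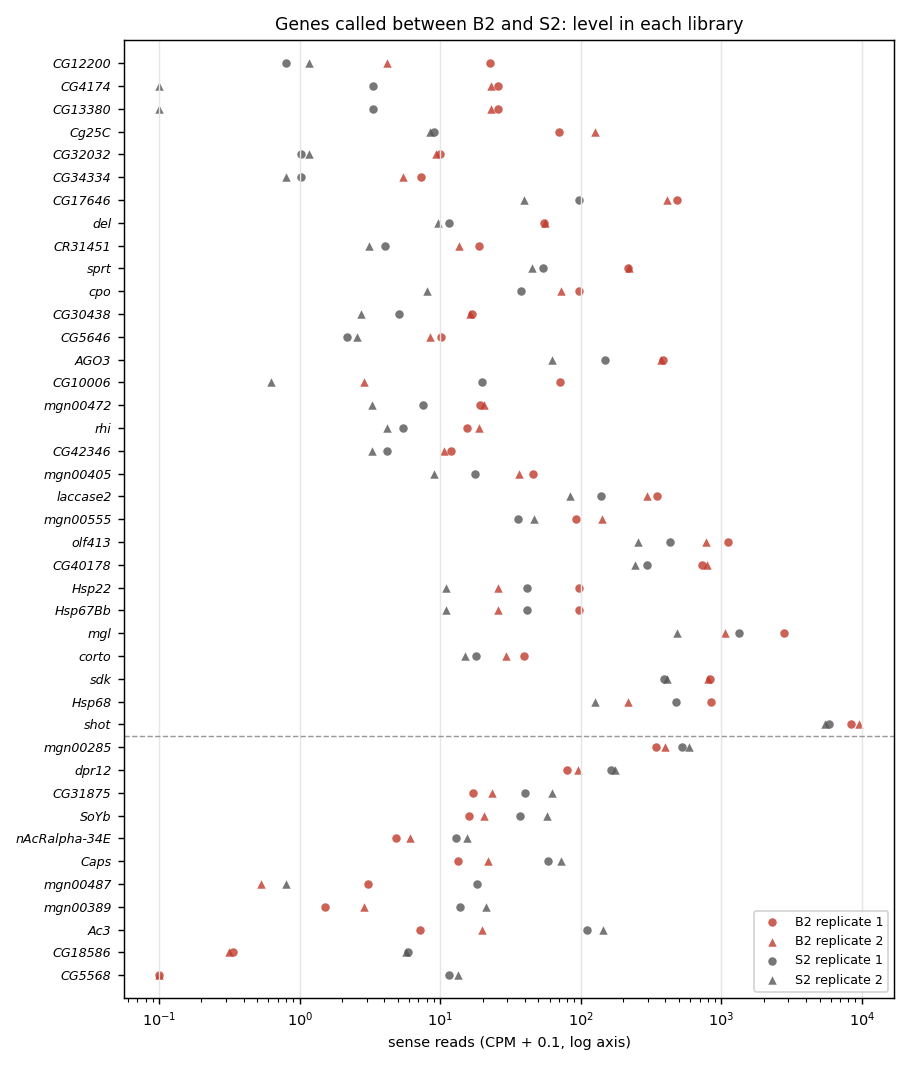
Level of each of the 41 called genes in sense reads, as CPM plus 0.1 on a log axis, with B2 libraries in red, S2 libraries in gray, replicate 1 as circles, and replicate 2 as triangles. Genes are ordered by log2FC, and the dashed line parts the 30 that were higher in B2 from the 11 that were lower; *CG5568* has 0 counts in both B2 libraries.

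**Figure D2:**
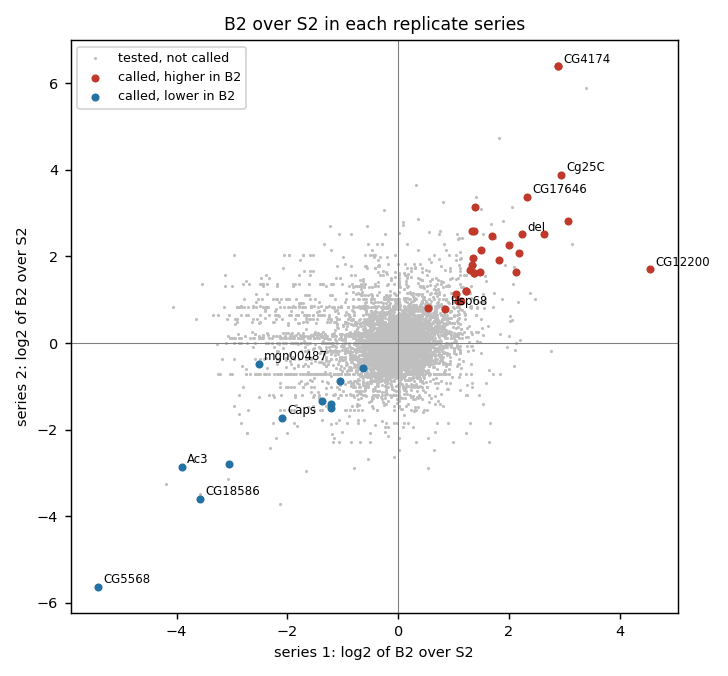
The log2 ratio of the B2 to the S2 library (2 counts added) in series 1 and in series 2 for each of the 9612 tested genes, with called genes in red where higher in B2 and in blue where lower. All 41 called genes, which were called from these same libraries, lie in the quadrants where both series have the same sign, as do 5479 of all tested genes. The cloud of uncalled genes stretches further to negative values in series 1 than in series 2.

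The piRNA pathway silences transposons in the germ line with small RNAs bound to PIWI proteins. Of its 24 tested genes, 3 rose and 1 fell in B2, which is 16.7% of the list beside 0.427% of all tested genes, and the median log2FC of the list was 0.01. *del* encodes Deadlock, which in the germ line binds Rhino at the loci that make piRNAs, and lies on 2L from 21145134 to 21148605. It had 54.6 and 55.7 CPM in B2, against 11.4 and 9.53 CPM in S2, and its log2FC was 2.38 (standard error 0.16, adjusted p = 0.00206 from edgeR). The levels of *del* did not overlap between the lines, and it was the gene called without the block and in 7 of the 8 fits that left out a library, all but that without B2 replicate 1. *rhi* encodes Rhino, a member of the HP1 family that is known to mark germ line piRNA loci, and had 15.4 and 18.8 CPM in B2, against 5.33 and 4.06 CPM in S2. Its log2FC was 1.81 (standard error 0.27, adjusted p = 0.0351 from edgeR), and it lies on 2R from 13515947 to 13521055, within the extent of *CG10936*. *CG10936* had 37.9 and 51.4 CPM in B2, against 17.0 and 13.1 CPM in S2 and just missed the threshold, with a log2FC of 1.52 (standard error 0.25, adjusted p = 0.0535 from edgeR), and *CG18186*, which also lies within *CG10936*, had 4.84 and 5.99 CPM in B2, against 0.928 and 1.59 CPM in S2 (adjusted p = 0.139). All 3 genes of this locus were higher in both B2 libraries, and the last 2 were chosen after their values were seen. As their extents overlap, reads may be shared between them, and the 3 rises may not be separate observations. *AGO3* encodes a PIWI protein of the ping-pong cycle that amplifies piRNAs, and its extent runs on 3L from 23547605 to 23682740. It had 383 and 374 CPM in B2, against 148 and 61.9 CPM in S2, a log2FC of 1.93 (standard error 0.24, adjusted p = 0.0148 from edgeR). The model *mgn00472*, which lies within *AGO3*, had 19.1 and 20.3 CPM in B2, against 7.42 and 3.18 CPM in S2, and its log2FC was 1.82 (standard error 0.26, adjusted p = 0.0282 from edgeR). *mgn00285*, also within *AGO3*, was lower in B2, at 341 and 395 CPM in B2, against 529 and 587 CPM in S2, with a log2FC of -0.60 (standard error 0.10, adjusted p = 0.0458 from edgeR). The sense reads of *mgn00285* outnumber those of *AGO3* in S2, so they were counted on the other strand, and the antisense level of *AGO3* was 4685 and 6384 CPM in B2, against 7255 and 9671 CPM in S2, with a log2FC of -0.61 (standard error 0.19, adjusted p = 0.145 from edgeR). Reads on the strand of *AGO3* thus rose while those of the model opposite fell. Reads of *AGO3* and *mgn00472* cannot be told apart where their extents overlap. *SoYb*, which encodes a Tudor domain protein of the same pathway, had 15.8 and 20.3 CPM in B2, against 37.1 and 57.7 CPM in S2, and its log2FC was -1.36 (standard error 0.13, adjusted p = 0.00431 from edgeR). It overlaps *CG31875*, at 17.1 and 23.1 CPM in B2, against 39.9 and 62.1 CPM in S2, which had nearly the same counts and a log2FC of -1.32 (standard error 0.13, adjusted p = 0.0045 from edgeR). For both, the B2 libraries lay below the S2 libraries. Among the other members, *tej* had 12.97 and 16.9 CPM in B2, against 8.35 and 10.4 CPM in S2 (unadjusted p = 0.0103, adjusted p = 0.348). *piwi*, which encodes a PIWI protein of the nucleus, had 0.472 and 0.214 CPM in B2, against 1.97 and 0.176 CPM in S2, and the germ line helicase gene *vas* had 1.18 and 0.856 CPM in B2, against 2.09 and 0.353 CPM in S2. Reads on both were few in B2 and in S2. *aub*, the partner of *AGO3* in the ping-pong cycle, had 15.9 and 26.5 CPM in B2, against 18.8 and 29.8 CPM in S2 and overlapped between the lines. The list of genes of heterochromatin and H3K9 methylation had 19 tested members, of which *rhi* alone was called, and its median log2FC was 0.00.

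Collagen IV is the main collagen of basement membranes, and in flies hemocytes secrete it. *Cg25C*, now *Col4a1*, encodes its alpha 1 chain and lies on 2L from 5029557 to 5036952. It had 70.4 and 127 CPM in B2, against 8.93 and 8.29 CPM in S2, and its log2FC was 3.40 (standard error 0.38, adjusted p = 0.00844 from edgeR). The partner chain is encoded by *vkg*, the next gene, which had 109.9 and 128 CPM in B2, against 29.5 and 18 CPM in S2 and a log2FC of 2.27 (standard error 0.42, adjusted p = 0.0795 from edgeR). Both chains were several times higher in both B2 libraries than in either S2 library, although *vkg* did not pass the threshold in edgeR; in DESeq2 both did. Of the 17 tested genes of basement membrane and matrix, 1 was called by edgeR, and the median log2FC was -0.07. The laminin chain genes *LanA*, *LanB1*, and *LanB2* had log2FC of -0.07, -0.28, and -0.16, none of them called. *Glt*, which encodes glutactin, had 31.1 and 44.5 CPM in B2, against 55.3 and 86.5 CPM in S2 (adjusted p = 0.12), and *dp*, which encodes the giant matrix protein Dumpy, had 4168 and 3642 CPM in B2, against 2739 and 2355 CPM in S2 (adjusted p = 0.0552). *Glt* was lower and *dp* higher in both B2 libraries, and DESeq2 called both. *vkg*, *Glt*, *dp*, and the laminin genes were named after their values were seen.

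Genes of the cell surface and the cytoskeleton were among the called genes with the most reads. *shot* encodes the spectraplakin Short stop, which links actin and microtubules, and had 8427 and 9599 CPM in B2, against 5817 and 5469.7 CPM in S2. Its log2FC was 0.67 (standard error 0.09, adjusted p = 0.0243 from edgeR), the smallest among the risers, and the lines did not overlap. *mgl* encodes Megalin, an endocytic receptor of the LDL receptor family, and had 2769.8 and 1068 CPM in B2, against 1345 and 488 CPM in S2. The lines overlapped, but *mgl* was higher in B2 within each series, with a log2 ratio of 1.04 in series 1 and 1.13 in series 2, and its log2FC was 1.08 (standard error 0.14, adjusted p = 0.0154 from edgeR). *sdk*, which encodes the immunoglobulin protein Sidekick, had 836 and 802 CPM in B2, against 393 and 408 CPM in S2 and a log2FC of 1.04 (standard error 0.13, adjusted p = 0.0154 from edgeR). The levels of *sdk* were alike in the 2 series and did not overlap between the lines. *corto*, which encodes a chromodomain protein known to bind Polycomb group and Trithorax group proteins, had 39.6 and 29.1 CPM in B2, against 17.97 and 14.8 CPM in S2, a log2FC of 1.07 (standard error 0.14, adjusted p = 0.0217 from edgeR). The list of cell adhesion and axon guidance genes did not hold *sdk* or *dpr12*, both of them called. Of its 74 tested genes, 0 were called by edgeR, 28 had an unadjusted p under 0.05 (10 higher, beside 4.60% of all genes, and 18 lower, beside 5.22%), and DESeq2 called *Ten-a*. Those with the smallest p were *Ten-a* (4461 CPM in B2 and 3232 CPM in S2, log2FC 0.46, unadjusted p = 0.00043 from edgeR), *Fas2* (30.2 CPM in B2 and 20.1 CPM in S2, log2FC 0.59, unadjusted p = 0.0037 from edgeR), and *caps*, which encodes Capricious (163 CPM in B2 and 112 CPM in S2, log2FC 0.55, unadjusted p = 0.00215 from edgeR). All 3 had higher means in B2. The smallest p among the 18 lower ones was that of *tutl*, at 47.5 and 91.4 CPM in B2, against 76.2 and 123 CPM in S2 (unadjusted p = 0.00657), chosen after its values were seen. The median log2FC of the 74 genes was -0.05, with a median log2 ratio of -0.08 in series 1 and 0.09 in series 2. Both B2 libraries were below both S2 libraries for 9 of the 74 and above for 10, beside 13.3% and 13.1% of all genes. Of 45 genes of the cytoskeleton and muscle, *shot* alone was called.

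Heat shock proteins are chaperones whose genes are transcribed strongly when proteins are damaged. Of 21 tested chaperone and heat shock genes, 20 had a log2FC above 0 in B2, beside 45.4% of all tested genes. The median log2FC of the list was 0.33, with a median log2 ratio of 0.39 in series 1 and 0.22 in series 2, beside -0.03 over all genes. The list's median was -0.05 in G3 and 0.04 in A7, 2 comparisons that share the S2 libraries. *Hsp68*, an inducible gene of the Hsp70 family, had 851 and 218 CPM in B2, against 474 and 127 CPM in S2. Within each series B2 was higher, with a log2 ratio of 0.85 in series 1 and 0.79 in series 2, while series 1 was far above series 2 in both lines. Its log2FC was 0.82 (standard error 0.12, adjusted p = 0.0282 from edgeR). *Hsp22*, which encodes a small heat shock protein of mitochondria, had 96.9 and 25.7 CPM in B2, against 41.5 and 10.9 CPM in S2 and a log2FC of 1.21 (standard error 0.17, adjusted p = 0.0282 from edgeR). *Hsp67Bb* overlaps *Hsp22* and has identical counts, so that it is no second observation. With the pair taken once, 19 of 20 genes had a log2FC above 0, 2 were called, 8 had an unadjusted p under 0.05, and the median was 0.29. In all, 9 of the 21 genes had an unadjusted p under 0.05, all of them higher in B2, whereas 4.60% of all tested genes did. Of those not called, *DnaJ-1*, an Hsp40 cochaperone gene that DESeq2 called, had 529.5 and 203 CPM in B2, against 388 and 153 CPM in S2 (unadjusted p = 0.0015). *Hsp26* had 542 and 118 CPM in B2, against 367 and 88.2 CPM in S2 (unadjusted p = 0.00511), *Hsp83*, the Hsp90 gene, had 2087 and 1969 CPM in B2, against 1719 and 1519 CPM in S2 (unadjusted p = 0.00531), and *Hsp70Ba* had 18.6 and 2.78 CPM in B2, against 6.73 and 2.29 CPM in S2 (unadjusted p = 0.0042). For each of these 4 the B2 library was higher in both series. The constitutive *Hsc70-4* (914 and 756 CPM in B2, against 768 and 831 CPM in S2) and the mitochondrial *Hsp60* (137 and 146 CPM in B2, against 124 and 155 CPM in S2) overlapped between the lines, and *Gp93* alone had a log2FC below 0 (-0.05). *Hsf*, which encodes the heat shock transcription factor, had 113 and 97.8 CPM in B2, against 106 and 91.8 CPM in S2 and was not called. The genes of the list other than those called were named after their values were seen. Without S2 replicate 1 the median was 0.26 with 15 of 21 genes above 0, and with library size alone it was 0.23 with 15 above 0. None of the 21 was called without a B2 or an S2 library, with 5, 9, 7, and 9 at an unadjusted p under 0.05 without B2 replicate 1, B2 replicate 2, S2 replicate 1, and S2 replicate 2.

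**Figure D3:**
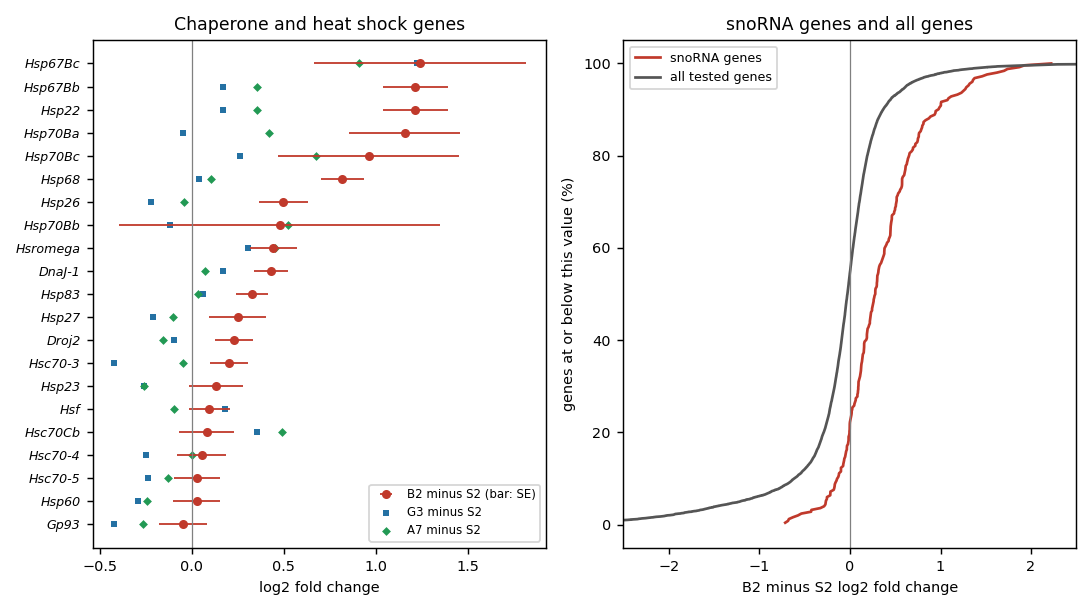
On the left, the log2FC of the 21 chaperone and heat shock genes in B2 (red, with standard error) and in G3 (blue squares) and A7 (green diamonds), all against the same S2 libraries. On the right, the share of genes at or below each log2FC of B2 for the 252 snoRNA genes (red) and all 9612 tested genes (gray), where the snoRNA curve lies to the right, with medians of 0.28 and -0.03.

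The largest rises were at genes with few reads in S2. *CG12200*, now *narya*, which encodes a RING finger protein known for its part in meiotic recombination, lies on X from 19369160 to 19370088 and had 22.4 and 4.07 CPM in B2, against 0.696 and 1.06 CPM in S2. B2 replicate 1 stood far above the other libraries, and the log2FC was 3.90 (standard error 0.63, adjusted p = 0.0467 from edgeR). *CG4174* and *CG13380*, which share nearly their whole extents on 3L from 18593248 to 18611056, had 25.7 and 22.7 CPM in B2, against 3.25 and 0 CPM in S2 and the same levels for the second gene. Their log2FC were 3.79 (standard error 0.57, adjusted p = 0.0351 from edgeR) and 3.79 (standard error 0.57, adjusted p = 0.0351 from edgeR), and the reads cannot be assigned to either. S2 replicate 2 had 0 counts there and S2 replicate 1 had 28, against 218 and 106 in B2. DESeq2 called neither gene. *CG32032* had 9.79 and 9.21 CPM in B2, against 0.928 and 1.06 CPM in S2, a log2FC of 3.26 (standard error 0.37, adjusted p = 0.00916 from edgeR). *CG34334*, which lies within *CG42346*, had 7.19 and 5.35 CPM in B2, against 0.928 and 0.706 CPM in S2, and its log2FC was 2.91 (standard error 0.36, adjusted p = 0.0142 from edgeR). *CG42346* itself had 11.8 and 10.5 CPM in B2, against 4.06 and 3.18 CPM in S2, and its log2FC was 1.60 (standard error 0.24, adjusted p = 0.0351 from edgeR). The B2 libraries were alike and above S2 for all 3. *CG17646*, a gene of the ABC transporter family, was among the strongest in reads, at 485 and 410.4 CPM in B2, against 96.9 and 39.3 CPM in S2, and its log2FC was 2.79 (standard error 0.29, adjusted p = 0.00718 from edgeR). The noncoding gene *CR31451*, now *lncRNA:mimi*, had 18.9 and 13.5 CPM in B2, against 3.94 and 3.00 CPM in S2 and a log2FC of 2.21 (standard error 0.26, adjusted p = 0.0113 from edgeR). It was the sole called gene among 95 tested genes with CR numbers.

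*sprt* had 215 and 219 CPM in B2, against 53.8 and 45.2 CPM in S2, and its log2FC was 2.12 (standard error 0.30, adjusted p = 0.0282 from edgeR). *cpo*, which encodes the RNA-binding protein Couch potato of the nervous system, had 97.4 and 72.1 CPM in B2, against 37.2 and 7.94 CPM in S2, with a log2FC of 2.12 (standard error 0.32, adjusted p = 0.0352 from edgeR). S2 replicate 1 was above S2 replicate 2 for *cpo*, and the log2 ratio was 1.38 in series 1 and 3.14 in series 2. *CG30438*, now *Ugt50B3*, of the UDP-glycosyltransferase family, had 16.6 and 16.1 CPM in B2, against 4.99 and 2.65 CPM in S2, and its log2FC was 2.07 (standard error 0.32, adjusted p = 0.0397 from edgeR). *CG5646* had 10.0 and 8.35 CPM in B2, against 2.09 and 2.47 CPM in S2 and a log2FC of 2.03 (standard error 0.33, adjusted p = 0.0467 from edgeR). The lines did not overlap for any of these 4. *CG10006*, now *Zip71B*, of the ZIP family of zinc transporters, had 70.8 and 2.78 CPM in B2, against 19.8 and 0.529 CPM in S2. Series 1 was far above series 2 in both lines, so that the lines overlapped, while the log2 ratio was 1.82 in series 1 and 1.93 in series 2 and the log2FC 1.83 (standard error 0.29, adjusted p = 0.0453 from edgeR). *laccase2*, which encodes a phenoloxidase of cuticle tanning, had 347 and 296 CPM in B2, against 138 and 84.3 CPM in S2, a log2FC of 1.56 (standard error 0.16, adjusted p = 0.00644 from edgeR). *olf413* had 1124 and 783 CPM in B2, against 434 and 256 CPM in S2, a log2FC of 1.49 (standard error 0.24, adjusted p = 0.044 from edgeR). Both were higher in B2 in each series. *CG40178*, now *l(3)80Fg*, had 728 and 785 CPM in B2, against 296 and 245 CPM in S2, and its log2FC was 1.49 (standard error 0.14, adjusted p = 0.00431 from edgeR). The model *mgn00555* within it had 92.5 and 141 CPM in B2, against 35.8 and 46.1 CPM in S2, with a log2FC of 1.49 (adjusted p = 0.0029). *mgn00405*, a model on 3RHet with no other name in the RefSeq table, had 45.3 and 36.0 CPM in B2, against 17.6 and 9.00 CPM in S2, and its log2FC was 1.60 (standard error 0.19, adjusted p = 0.0133 from edgeR). For each of these the 2 B2 libraries were above the 2 S2 libraries.

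The largest fall was at *CG5568*, on 3L from 5864546 to 5866618, with 0 counts in both B2 libraries. It had 0 and 0 CPM in B2, against 11.4 and 13.2 CPM in S2, which puts the level in B2 at least 53.9-fold lower than in S2, taking 3 counts over both B2 libraries as the floor. The adjusted p was 0.0029 from edgeR. Its neighbor *CG18586*, whose extent overlaps that of *CG5568* by its end, had 0.236 and 0.214 CPM in B2, against 5.80 and 5.65 CPM in S2, which were 2 and 1 counts in B2 and 50 and 32 in S2. The log2FC of *CG18586* was -4.57 (standard error 0.65, adjusted p = 0.0282 from edgeR). Sense reads of this pair of genes were thus at or under the floor in B2. Antisense reads, scaled to antisense counts, were not, and neither gene was called on them. Their means were 88.8 CPM in B2 and 98.9 CPM in S2 for *CG5568*, and 94.6 CPM in B2 and 86.9 CPM in S2 for *CG18586*. In sense reads of the other clones, *CG5568* was also near 0 in G3, at 0.0984 and 0.389 CPM, and high in A7, at 15.7 and 22.4 CPM. *Ac3*, which encodes an adenylyl cyclase, the enzyme that makes cAMP, lies on 2L from 21630023 to 21647820 and had 7.08 and 19.7 CPM in B2, against 109.8 and 144 CPM in S2. Its log2FC was -3.36 (standard error 0.37, adjusted p = 0.00829 from edgeR). The model *mgn00389* within it had 1.42 and 2.78 CPM in B2, against 13.7 and 21 CPM in S2, and its log2FC was -3.09 (standard error 0.34, adjusted p = 0.00829 from edgeR). B2 was far below S2 at this locus in both series. *mgn00487*, a model of 149 bp on the unplaced sequence U, had 2.95 and 0.428 CPM in B2, against 18.2 and 0.706 CPM in S2, so that it overlapped between the lines, and its log2FC was -2.45 (standard error 0.39, adjusted p = 0.0458 from edgeR). *Caps*, which encodes the calcium-activated protein for secretion and lies on chromosome 4 from 1235561 to 1275487, had 13.3 and 21.6 CPM in B2, against 58.2 and 72.2 CPM in S2 and a log2FC of -1.94 (standard error 0.16, adjusted p = 0.0029 from edgeR). Series 1 was far above series 2 at *mgn00487*, and at *Caps* the 2 series were alike. *nAcRalpha-34E*, now *nAChRalpha5*, a nicotinic acetylcholine receptor subunit gene, had 4.72 and 5.99 CPM in B2, against 12.8 and 15.5 CPM in S2, and its log2FC was -1.41 (standard error 0.22, adjusted p = 0.042 from edgeR). Its extent overlaps that of *nimC4*, whose mean level was 3.97 CPM in B2 and 10.0 CPM in S2. Reads may be shared between them, so the fall may not belong to the receptor gene. *dpr12*, of a family of immunoglobulin proteins of neurons, had 79.8 and 95.1 CPM in B2, against 165 and 174 CPM in S2, with a log2FC of -0.96 (standard error 0.16, adjusted p = 0.0479 from edgeR). For each of these called genes other than *mgn00487* the lines did not overlap. Of 49 tested genes in the list of ion channels, transporters, and synapses, *nAcRalpha-34E* was the sole call by edgeR, and *unc-13* (929 and 421 CPM in B2, against 429 and 359 CPM in S2), a gene of synaptic vesicle release, the sole call by DESeq2. The called genes *Caps*, *CG17646*, and *CG10006* were not in that list. The median log2FC of that list was -0.41, with -0.52 in series 1 and 0.12 in series 2, and it was 0.27 without S2 replicate 1, the library with reads on the most genes, -0.65 without S2 replicate 2, and -0.23 without B2 replicate 1.

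Called genes were also counted by length. Of 265 tested genes whose extent is at least 50000 bp, 8 rose in B2, which is 3.02% of them, beside 0.312% of all tested genes, and 1, *dpr12*, fell. The 8 were *CG40178*, *mgl*, *AGO3*, *olf413*, *cpo*, *shot*, *sdk*, and *CG30438*. The median log2FC of the long genes was -0.09, with -0.18 in series 1 and 0.13 in series 2. The median standard error was 0.24 for these genes and 0.14 for the 2128 genes between 5000 and 20000 bp, of which 12 rose (0.564%) and 4 fell. The risers had a median extent of 9348 bp, the fallers 6886 bp, and all tested genes 2792 bp.

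Small nucleolar RNAs guide the modification of ribosomal RNA and are mostly processed from introns of longer host transcripts. Of 252 tested snoRNA genes, 0 were called by edgeR or by DESeq2, but 35 had an unadjusted p under 0.05 and were higher in B2, beside 4.60% of all tested genes, and 3 were lower, beside 5.22%. The log2FC was above 0 for 197 of them, beside 45.4% of all tested genes, and the median was 0.28, with a median log2 ratio of 0.25 in series 1 and 0.35 in series 2. It was 0.09 in G3 and 0.16 in A7 against the same S2 libraries. The snoRNA genes are short, with a median extent of 134 bp, and their median level was 6.16 CPM in B2 and 5.08 CPM in S2. Those with the smallest p were *snoRNA:Me28S-G3113a* (10.7 CPM in B2 and 5.46 CPM in S2, log2FC 1.00, unadjusted p = 0.00272 from edgeR), *snoRNA:Psi28S-3385b* (21.4 CPM in B2 and 12.1 CPM in S2, log2FC 0.76, unadjusted p = 0.00518 from edgeR), and *snoRNA:Psi28S-3385a* (25.7 CPM in B2 and 16.7 CPM in S2, log2FC 0.58, unadjusted p = 0.0085 from edgeR). All 3 had higher means in B2. Of the 252, 230 lie within another tested gene, and reads of the host and of the snoRNA cannot be told apart there. The median log2FC of the 98 genes that hold them was 0.07, of which 64 were above 0 and 0 were called. The median of the snoRNA genes was 0.18 with library size alone and between 0.19 and 0.39 without a B2 or an S2 library.

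In runs of 31 adjacent tested genes, the median log2FC of B2 lay between -0.17 and 0.11 from the 5th to the 95th percentile of 9345 such windows. The highest median, 0.52, was on 2R between 13492456 and 13590827, where *rhi*, *CG10936*, and *CG18186* lie at one end and *Uhg1* with a cluster of snoRNA genes within it at the other. *Uhg1*, a noncoding gene known as a host of snoRNAs, had 109 and 104 CPM in B2, against 64.9 and 74.5 CPM in S2 (unadjusted p = 0.00178). That window's median was 0.55 in series 1 and 0.34 in series 2, and 0.36 in G3 and 0.19 in A7. The lowest median, -0.43, was on 2L from 21361235 to 22164838, the window that holds *Ac3* and *mgn00389*. It was -0.43 in series 1 and -0.20 in series 2, and -0.18 in G3 and 0.03 in A7. Windows overlap their neighbors, and no test was made of them.

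Most other groups of genes showed no call in B2, and their counts at an unadjusted p under 0.05 stand beside 9.82% of all tested genes. Among regulators of chromatin, 0 of 12 genes of *upSET* and the histone deacetylases were called, with CG9007 (log2FC 0.27), *HDAC4* (622 CPM in B2 and 502 CPM in S2, log2FC 0.31, unadjusted p = 0.0174 from edgeR), and *Smr*, which encodes a corepressor (1946 CPM in B2 and 2432 CPM in S2, log2FC -0.33, unadjusted p = 0.00575 from edgeR), at an unadjusted p under 0.05. 1 of 19 Polycomb group genes passed that level, *pho* (227 CPM in B2 and 175 CPM in S2, log2FC 0.36, unadjusted p = 0.00534 from edgeR), as did 3 of 16 Trithorax group genes, *tna* (562 CPM in B2 and 428 CPM in S2, log2FC 0.39, unadjusted p = 0.00523 from edgeR), *osa* (2129 CPM in B2 and 1815 CPM in S2, log2FC 0.24, unadjusted p = 0.027 from edgeR), and *kis* (4414 CPM in B2 and 3875 CPM in S2, log2FC 0.19, unadjusted p = 0.0419 from edgeR). All 4 had higher means in B2, and none was called by edgeR or DESeq2. Of 8 genes of the MSL complex, 0 were called by either tool and 0 had an unadjusted p under 0.05, *roX1* included. The 26 genes of chromatin boundaries and architecture had 5 at that level, among them *pita* (31.1 CPM in B2 and 43.7 CPM in S2, log2FC -0.51, unadjusted p = 0.00221 from edgeR), *mod(mdg4)* (1089 CPM in B2 and 869 CPM in S2, log2FC 0.33, unadjusted p = 0.016 from edgeR), and *Top2* (128 CPM in B2 and 165 CPM in S2, log2FC -0.34, unadjusted p = 0.0167 from edgeR), and 0 calls in either tool. Of 21 histone methyltransferase and demethylase genes, *G9a* alone reached it (102 CPM in B2 and 85.8 CPM in S2, log2FC 0.25, unadjusted p = 0.0497 from edgeR). In the siRNA and microRNA pathway, *AGO1* (592 CPM in B2 and 492 CPM in S2, log2FC 0.26, unadjusted p = 0.0303 from edgeR) and *gw* (455 CPM in B2 and 388 CPM in S2, log2FC 0.23, unadjusted p = 0.0389 from edgeR) did, of 11 genes. Neither tool called a member of these last 2 lists.

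In the signaling lists, 0 genes were called by edgeR, and DESeq2 called *spz* of the innate immunity list and *dally* and *nkd* of the Wnt, Hedgehog, and BMP list. *spz*, the ligand of Toll, had 144 and 182 CPM in B2, against 83.6 and 98.1 CPM in S2 (unadjusted p = 0.000944), and *nkd*, an inhibitor of Wnt signaling, had 121 and 48.4 CPM in B2, against 75.9 and 34.6 CPM in S2 (unadjusted p = 0.000851). *dally*, a glypican that binds Wnt and BMP ligands, had 1631 and 1706 CPM in B2, against 1162 and 989 CPM in S2 (unadjusted p = 0.00197). Both B2 libraries were above both S2 libraries for *spz* and *dally*, while for *nkd* the B2 library was the higher one within each series. The other members with the smallest unadjusted p were *PGRP-LC* (0.61) and *Dif* (-0.65) of innate immunity, *Stat92E* (0.24) of JAK/STAT, *Pvf3* (-0.55), *ths* (-1.61), and *hep* (0.41) of the receptor tyrosine kinase list, and *pan* (0.39) of the Wnt list. In the Notch pathway they were *HLHmbeta* (0.89), *numb* (-0.35), and *Dl* (-2.71), in the Hippo pathway *wts* (0.41), *ft* (-0.91), and *ds* (-2.44), in the ecdysone response *Eip55E* (-0.67) and *Eip78C* (0.67), and in the insulin and TOR pathway *Pi3K21B* (0.28), *Tor* (-0.25), and *S6k* (0.35). The values in parentheses are log2FC of B2 over S2. For *Dl* and *ds* the log2 ratio was below 0 in series 1 alone, at -2.84 in series 1 and 0.12 in series 2 for *Dl* and -2.77 in series 1 and 0.16 in series 2 for *ds*.

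In the lists of growth and metabolism, medians stayed close to 0 and 0 genes were called by either tool. The 50 cell cycle and replication genes had a median of -0.15, with 13 above 0, and *Orc4* (-0.63), *CycG* (0.29), and *mus209*, the gene of PCNA (-0.41), had the smallest p. The median was 0.02 without S2 replicate 2 and -0.29 without S2 replicate 1. The 21 aminoacyl-tRNA synthetase genes had a median of -0.15 with 3 above 0, and *Aats-ser* alone reached an unadjusted p under 0.05 (-0.33). That median was -0.04 without B2 replicate 2, -0.08 without S2 replicate 2, -0.25 without B2 replicate 1, and -0.23 without S2 replicate 1. The 72 mitochondrial ribosomal protein genes had a median of -0.16, with *mRpL2* (-0.81), *mRpS5* (0.61), and *mRpL1* (-0.49) lowest in p. It was -0.06 without S2 replicate 2 and -0.29 without S2 replicate 1. The 86 cytoplasmic ribosomal protein genes had a median of -0.01, with 0 at an unadjusted p under 0.05, and medians of 0.27 in series 1 and -0.26 in series 2. Of 16 genes of glycolysis and lactate, 4 were above 0, and *Gapdh2*, *Pgk*, and *Hex-A*, all glycolytic enzymes, had an unadjusted p under 0.05. *Gapdh2* had 23 and 25.9 CPM in B2, against 34.3 and 43.6 CPM in S2, *Pgk* had 44.6 and 54.2 CPM in B2, against 64.6 and 72.2 CPM in S2, and *Hex-A* had 29.6 and 33.2 CPM in B2, against 46.4 and 40.4 CPM in S2. The B2 libraries lay below the S2 libraries for all 3, with log2FC of -0.66, -0.48, and -0.48 and adjusted p of 0.117, 0.218, and 0.439. Glutathione S-transferases had 3 of 19 at that level, *GstD10* (0.94), *GstD9* (0.65), and *GstS1* (0.79), all with higher means in B2. Single members reached it elsewhere. They were *Gclc* (0.40) of oxidative stress, *v(2)k05816* (0.44) of lipid metabolism, *cathD* (-0.57) of the lysosome, *debcl* (0.36) of cell death, *eIF-4B* (0.26) of translation initiation, and *Cyp9c1* (-0.48) of the cytochromes P450. *Rpt6R* (1.45) and *Pros26.4* (-0.38) of the proteasome, *Vha14-1* (-0.75) and *Vha100-4* (0.47) of the V-ATPase, and *RpII33* (-0.69) and *MED14* (0.29) of the transcription machinery did so in pairs of opposite sign.

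Of 13 tested genes of hemocyte identity and phagocytosis, 0 were called by edgeR or DESeq2 and 3 had an unadjusted p under 0.05, all lower in B2. These were *Nplp2* (10.8 and 24.6 CPM in B2, against 16.5 and 49.9 CPM in S2), *nimC4* (2.59 and 5.35 CPM in B2, against 4.87 and 15.2 CPM in S2), and *Pxn*, which encodes peroxidasin (496 and 658 CPM in B2, against 808 and 791 CPM in S2). The extent of *nimC4* overlaps that of the called gene *nAcRalpha-34E*, so their falls may not be separate observations. Of 75 developmental transcription factor genes, 0 were called by edgeR, 4 were higher and 15 lower at an unadjusted p under 0.05, beside 4.60% and 5.22% of all tested genes, and DESeq2 called *ap* and *ovo*. *ap*, which encodes Apterous, had 3139.6 and 2909.8 CPM in B2, against 2171 and 2061 CPM in S2 (adjusted p = 0.111). *ovo*, a zinc finger gene of the germ line and epidermis, had 9.20 and 2.78 CPM in B2, against 21.5 and 12.9 CPM in S2 (adjusted p = 0.0709), and *toy*, a Pax6 gene, had 0.590 and 0.214 CPM in B2, against 3.83 and 0.882 CPM in S2 (adjusted p = 0.202). The median of this list was -0.73, with -0.73 in series 1 and 0.12 in series 2. It was 0.24 without S2 replicate 1, -1.06 without S2 replicate 2, and -0.17 without B2 replicate 1, so that its sign rests on S2 replicate 1, which had reads on the most genes. *LpR1* (-2.06) of the fat body list, *Or22c* (-2.35) of the chemoreceptors, and *mir-3642* (-2.21) of the microRNA genes had levels under 1 CPM in B2, and *mir-2493* (0.37) and *Spn77Ba* (1.34) were the others with the smallest p in their lists. The lists of histone genes (4 tested of 115), UDP-glucuronosyltransferases, cuticle proteins, and nuclear pore genes had 0 genes at an unadjusted p under 0.05 and 0 calls in either tool. The called gene *CG30438*, now *Ugt50B3*, was not in the UDP-glucuronosyltransferase list.

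Antisense reads, which map to a gene but to the opposite strand, made up between 8.59% and 10.95% of the reads of a library. Of 7043 genes with at least 10 antisense counts in at least 2 libraries, 47 were called (0.667%), 24 higher in B2 (0.341%) and 23 lower (0.327%). Leaving out 1 library moved this count to 15 without B2 replicate 1, 18 without S2 replicate 1, and 377 without S2 replicate 2, of which 60 were higher and 317 lower, and 0 were called without the block (193 at an unadjusted p under 0.05). Antisense CPM are scaled to the antisense counts of a library. *CG30438* had 1384 and 3255 CPM in B2, against 156 and 156 CPM in S2, an antisense log2FC of 3.81 (standard error 0.35, adjusted p = 4.78e-06 from edgeR). In counts this was 1333 and 1296 antisense reads in B2 beside 141 and 75 sense reads, against 168 and 76 antisense beside 43 and 15 sense reads in S2. The extent of *CG30438* overlaps *TpnC4*, which had 58 and 55 sense reads in B2 and 15 and 1 in S2, and *mgn00310*, which had 24 and 24 sense reads in B2 and 6 and 3 in S2. *CG17646* had 2887 and 957 CPM in B2, against 573 and 84.1 CPM in S2, an antisense log2FC of 2.76 (standard error 0.31, adjusted p = 8.42e-05 from edgeR), and it was called on both kinds of reads. The antisense reads of both genes were several times higher in B2 in each series. *mgn00563* had 1139 and 1519.5 CPM in B2, against 176 and 149.8 CPM in S2, with a log2FC of 3.00 (standard error 0.26, adjusted p = 4.72e-06 from edgeR). *Yeti*, on 2RHet, had 594 and 1788 CPM in B2, against 106 and 172 CPM in S2, with a log2FC of 2.94 (standard error 0.26, adjusted p = 4.72e-06 from edgeR), while its sense log2FC was 0.18. *CG42492*, now *OtopLa*, of the otopetrin proton channel family, had 329 and 414 CPM in B2, against 84.5 and 84.1 CPM in S2, with a log2FC of 2.13 (standard error 0.25, adjusted p = 0.000105 from edgeR). The lines did not overlap for any of these 5. Among the antisense falls with the smallest p, *beat-Ic*, of the Beaten path family of axon guidance proteins, had 3.12 and 10.0 CPM in B2, against 156 and 181 CPM in S2, with a log2FC of -4.99 (standard error 0.59, adjusted p = 0.000105 from edgeR). *beat-Ia*, the founding member of that family, had 10.4 and 30.1 CPM in B2, against 156 and 172 CPM in S2, with a log2FC of -3.23 (standard error 0.53, adjusted p = 0.00329 from edgeR).

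*CG3812* had 4.15 and 12.6 CPM in B2, against 56.6 and 195 CPM in S2 in antisense reads, with a log2FC of -3.84 (standard error 0.47, adjusted p = 0.000132 from edgeR). *tsh*, which encodes the homeotic zinc finger protein Teashirt, had 9.35 and 45.2 CPM in B2, against 86.4 and 222 CPM in S2, with a log2FC of -2.66 (standard error 0.40, adjusted p = 0.00153 from edgeR), and *CG42750* had 19.7 and 5.02 CPM in B2, against 135 and 96.4 CPM in S2, with a log2FC of -3.02 (standard error 0.48, adjusted p = 0.00222 from edgeR). B2 was below S2 in every library for these 5 falls. *CG42750* overlaps *CG7180*, which had 3 and 2 sense counts in B2, against 62 and 43 in S2, and *CG31802*. In all, 5 genes were called on both kinds of reads. *CG30438*, *CG17646*, and *mgn00405* were higher and *Caps* lower on both, while *mgn00285* was lower on sense and higher on antisense reads. For *Caps* the antisense level was 88.3 and 105 CPM in B2, against 243 and 339 CPM in S2, and for *mgn00405* it was 249 and 219 CPM in B2, against 47.4 and 10.3 CPM in S2. An antisense read of 1 gene can be a sense read of a gene that overlaps it on the other strand. *CG32533* overlaps *CG12200* and had 716 and 153 CPM in B2, against 26.9 and 45.1 CPM in S2 in antisense reads, where *CG12200* had 190 and 19 sense counts in B2 and 6 and 6 in S2. Of the 47 genes, 32 overlap no other tested gene.

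**Figure D4:**
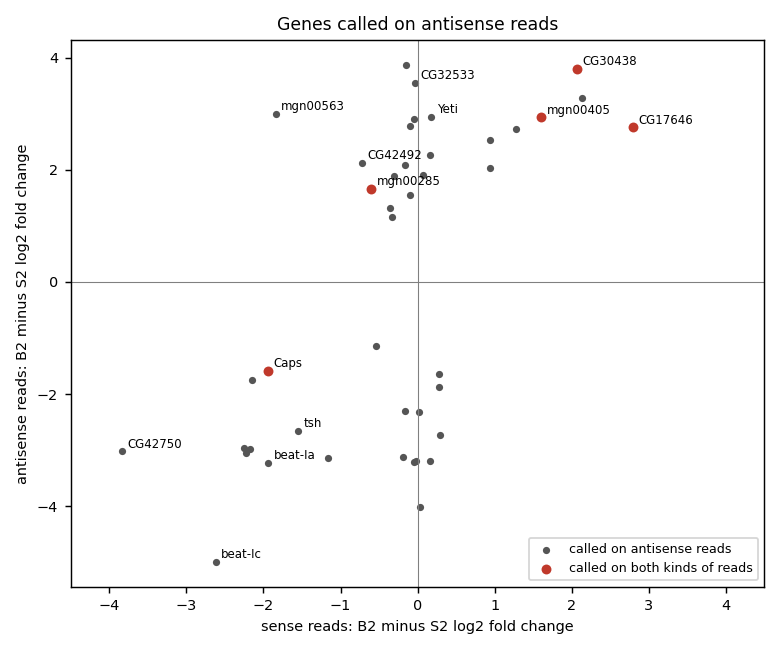
Antisense log2FC (vertical) against sense log2FC (horizontal) of B2 over S2 for the genes called on antisense reads that were also tested on sense reads, with those called on both in red. *CG30438*, *CG17646*, and *mgn00405* are high on both axes, *Caps* is low on both, and *mgn00285* is the red point with opposite signs.

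The other *upSET* mutant clones carry other lesions, and the genes called in B2 were compared with them. The comparisons of B2, G3, and A7 with S2 share the S2 libraries, and 564 genes (5.87%) were called in G3 and 353 (3.67%) in A7. Of the 30 risers in B2, 16 were called higher in G3, 13 in A7, and 12 in both, while 12 were called in neither and *CG10006* was called lower in G3. Those higher in all 3 clones included *del*, with log2FC of 2.38 in B2 and 2.91 in G3 and 2.74 in A7, *Cg25C*, with 3.40 in B2 and 4.75 in G3 and 4.41 in A7, and *AGO3*, with 1.93 in B2 and 2.73 in G3 and 3.75 in A7. *CG32032* had 3.26 in B2 and 2.78 in G3 and 2.97 in A7, and *laccase2* had 1.56 in B2 and 1.15 in G3 and 1.30 in A7. Of the 11 fallers, 7 were called lower in G3, 2 in A7, 1 (*nAcRalpha-34E*) in both, and 3 in neither. *Caps*, *SoYb*, *CG5568*, and *CG18586* were called in B2 and G3 but not in A7, with log2FC in A7 of -0.18, 0.45, 0.60, and 0.99.

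**Figure D5:**
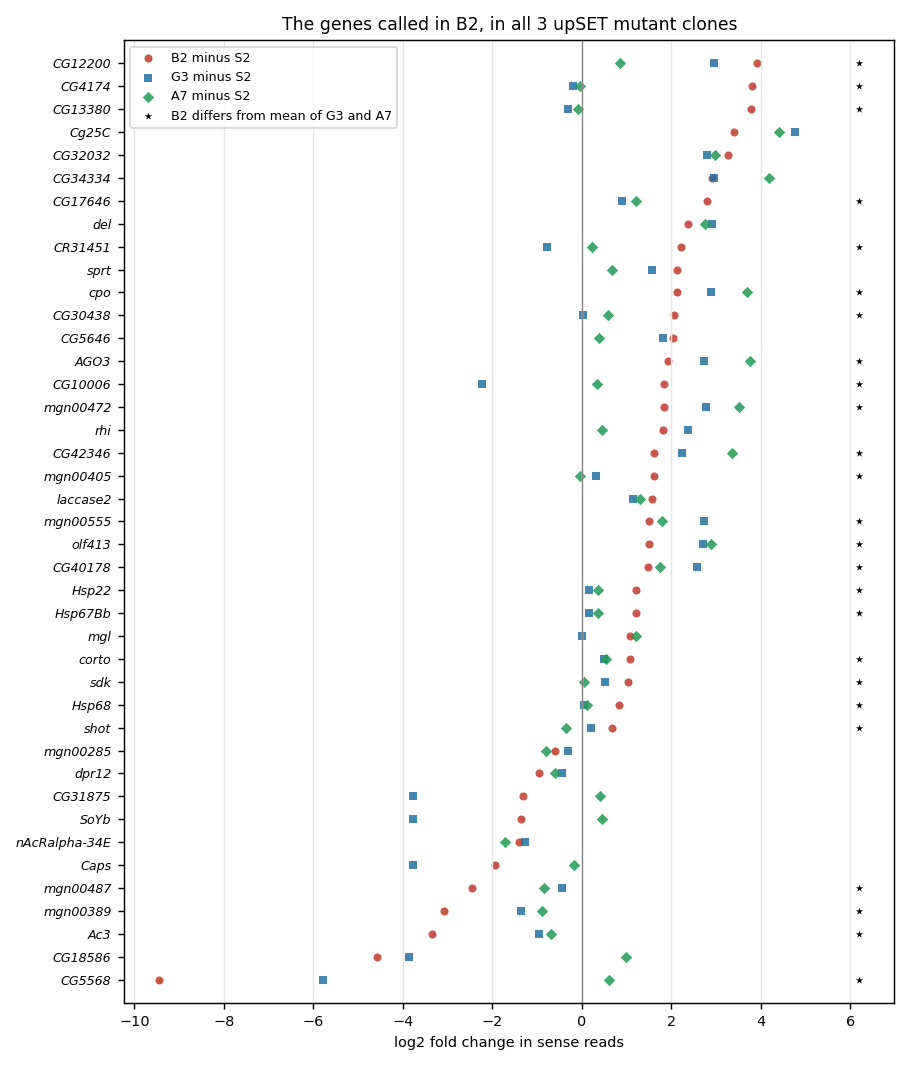
The log2FC against S2 of the 41 genes called in B2 in B2 (red circles), G3 (blue squares), and A7 (green diamonds), ordered by the value in B2, with a star where B2 differed from the mean of G3 and A7. The fitted value of *CG5568* in B2, where all counts are 0, is not a measured fold change.

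The difference between B2 and the mean of G3 and A7, a contrast in which the level of S2 does not enter, was called for 380 of the 9612 genes (3.95%), 181 of them higher in B2 (1.88%) and 199 lower (2.07%). The count was 20 without the block, 13 without B2 replicate 1, and 36 without B2 replicate 2. Of the 41 genes called against S2, 25 differed from the other clones as well, 14 of the risers higher than there, 7 of the risers lower than there, and 4 of the fallers lower. The rises of *AGO3*, *olf413*, *cpo*, *CG42346*, and *CG40178* were smaller in B2 than in the mean of the other clones, whereas those of *CG17646*, *CR31451*, *CG30438*, *Hsp68*, *Hsp22*, *sdk*, and *shot* were larger. *shot* had 8427 and 9599 CPM in B2, against 6251 and 6809 CPM in G3 and 4345 and 4518 CPM in A7, a difference of 0.74 (standard error 0.08, adjusted p = 0.00194 from edgeR). *CR31451* had 18.9 and 13.5 CPM in B2, against 2.26 and 1.75 CPM in G3 and 3.97 and 4.31 CPM in A7, a difference of 2.49 (standard error 0.22, adjusted p = 0.000777 from edgeR). Both B2 libraries were above all 4 libraries of the other clones for both genes. Of the 21 chaperone genes, 20 were above the mean of G3 and A7, with a median difference of 0.31 beside 0.01 over all genes, and 5 were called higher, *Hsp68*, *Hsp26*, *Hsc70-3*, and the pair *Hsp22* and *Hsp67Bb* with identical counts. *Ac3* had 7.08 and 19.7 CPM in B2, against 71.5 and 52.6 CPM in G3 and 57.8 and 105 CPM in A7, a difference of -2.54 (standard error 0.34, adjusted p = 0.00627 from edgeR), and was lower in B2 than in every library of the other clones.

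The genes with the largest differences in this contrast included some called against S2 and some not. *mgn00215*, a model on X, had 117 and 104 CPM in B2, against 1.08 and 0.194 CPM in G3 and 2.08 and 1.18 CPM in A7, a difference of 6.58 (standard error 0.19, adjusted p = 1.3e-06 from edgeR), and it had 93.3 and 84.9 CPM in S2. *RunxA*, a Runt family transcription factor gene, had 15.1 and 16.1 CPM in B2, against 1.97 and 1.17 CPM in G3 and 2.17 and 0.196 CPM in A7, a difference of 3.39 (standard error 0.37, adjusted p = 0.00269 from edgeR). It had 8.001 and 6.18 CPM in S2. *CG4174* and *CG13380* followed, with differences of 3.92 and 3.99 and 25.7 and 22.7 CPM in B2, against 1.87 and 1.17 CPM in G3 and 1.79 and 1.76 CPM in A7 for *CG4174*. *CG10006* had 70.8 and 2.78 CPM in B2, against 3.84 and 0.389 CPM in G3 and 21.4 and 2.55 CPM in A7, a difference of 2.78. *CG6357* had 5.07 and 15.6 CPM in B2, against 0.197 and 0.194 CPM in G3 and 5.48 and 16.3 CPM in A7, a difference of 2.63 with low levels in G3 alone, and *Dic61B*, an axonemal dynein gene, had 6.60 and 2.35 CPM in B2, against 0.590 and 0.194 CPM in G3 and 0.755 and 0.392 CPM in A7, a difference of 3.16. *CG43151* had 1.77 and 1.07 CPM in B2, against 0.197 and 0.389 CPM in G3 and 0 and 0 CPM in A7, so few counts that its fitted difference of 4.42 is no bound.

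In the other direction, *boi*, which encodes the Hedgehog coreceptor Brother of ihog, had 52.1 and 46.5 CPM in B2, against 1580.1 and 890.4 CPM in G3 and 2739 and 2360.3 CPM in A7, a difference of -5.16 (standard error 0.27, adjusted p = 5.25e-05 from edgeR), and 124 and 49.4 CPM in S2. *roX1* had 15.1 and 49.2 CPM in B2, against 3864 and 4172 CPM in G3 and 316 and 146 CPM in A7, a difference of -4.99 (standard error 0.52, adjusted p = 0.00194 from edgeR). *CG41378*, on 2RHet, had 5.07 and 14.8 CPM in B2, against 684 and 809.8 CPM in G3 and 432 and 593 CPM in A7, a difference of -6.08 (standard error 0.58, adjusted p = 0.00119 from edgeR), and 17.97 and 3.71 CPM in S2. For these 3 genes the B2 libraries lay far below every library of G3 and A7. *tsh* had 4.84 and 5.78 CPM in B2, against 181 and 90.3 CPM in G3 and 152 and 270.4 CPM in A7, a difference of -5.02 (standard error 0.43, adjusted p = 0.000777 from edgeR), and 14.6 and 16.2 CPM in S2. *CG42596*, now *dpr21*, had 0.472 and 0.856 CPM in B2, against 13.1 and 8.55 CPM in G3 and 65.3 and 15.7 CPM in A7, a difference of -5.21 (standard error 0.61, adjusted p = 0.00327 from edgeR). *CG15543* had 0.472 and 0 CPM in B2, against 1.97 and 1.36 CPM in G3 and 86.7 and 36.9 CPM in A7, so that A7 held most of its reads. *mgn00204* had 0 counts in both B2 libraries, at least 17.0-fold below the mean of 3.87 CPM of the other clones, and *CG5568* was at least 42.2-fold below theirs, since A7 had reads on it. The adjusted p of these 2 genes were 0.0161 and 0.0248 from edgeR.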

How the data were processed

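Nascent RNA of B2, G3, A7, and S2 cells was sequenced in 2 libraries per line. Per the submitters' processing notes, Bowtie 0.12.7, bedtools, and the dm3 assembly were used, and the authors deposited tables of raw sense and antisense read counts per gene, whose values are whole numbers. Sense counts came to 4738785 to 10902304 per library. The labels name the libraries of the second series rep 2, and the columns name them r3. The genes, lists, and comparisons were chosen with earlier results of these data known.

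Counts were analysed in R 4.3.3 with edgeR 4.0.16 (limma 3.58.1): TMM factors, the filters given in the report, 1 model of the 8 libraries with line and series, glmQLFit and glmQLFTest, and Benjamini-Hochberg adjustment over all genes tested. The block was kept because same-numbered libraries deviated together (r between 0.50 and 0.63 for the 6 pairs of lines). DESeq2 1.42.0, other filters, library size alone, no block, and each library left out in turn were the alternatives. Ratios within a series added 2 counts, and they and the medians of lists under alternatives were added after the data were seen. The procedure was run on counts simulated from the means and dispersions of the same fit, which cannot check whether the block suits the data. Named were the called genes, up to 3 members per list with the smallest p under 0.05, the 5 smallest p in each direction on antisense reads, and the 8 largest differences in each direction from G3 and A7. Other genes were named after their values were seen. Gene names in the files were matched to RefSeq symbols. ChIP-seq samples were not used.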

Additional observations from a re-analysis of the deposited data

Results flagged for a closer look

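The contrast of B2 with the mean of G3 and A7 tests whether the clones differ. Searched here were the genes called against S2 and the 8 largest differences in each direction. This gave 37 genes, 19 of them higher in B2 and 18 lower, 25 of which were also called against S2. Other genes named in the report were called in this contrast too. Among them, in log2 differences, were *dp* (1.12), *Hsp26* (0.63), *Hsc70-3* (0.44), *Gapdh2* (-0.73), *Glt* (-0.81), and *Pgk* (-0.50). The adjusted p of these 37 ran up to 0.046 from edgeR. The values that follow are log2 differences of B2 minus that mean. The largest positive differences were at *mgn00215* (6.58), *CG43151* (4.42), *CG13380* (3.99), *CG4174* (3.92), *RunxA* (3.39), *Dic61B* (3.16), *CG10006* (2.78), and *CG6357* (2.63). Other genes that were called higher in B2 both than in S2 and than in the mean of the other clones were *CR31451* (2.49), *CG12200* (2.00), *CG30438* (1.76), *CG17646* (1.74), *mgn00405* (1.46), *Hsp22* and *Hsp67Bb* (both 0.95), *sdk* (0.76), *Hsp68* (0.75), *shot* (0.74), and *corto* (0.56). Genes that rose in B2 but were lower there than in the other clones were *CG40178* (-0.67), *mgn00555* (-0.76), *cpo* (-1.17), *CG42346* (-1.18), *olf413* (-1.31), *AGO3* (-1.31), and *mgn00472* (-1.31). Genes that fell in B2 were lower there than in the other clones at *mgn00487* (-1.81), *mgn00389* (-1.95), *Ac3* (-2.54), and *CG5568* (fitted -6.85). The largest negative differences at genes not called against S2 were at *roX1* (-4.99), *tsh* (-5.02), *CG15543* (-5.12), *boi* (-5.16), *CG42596* (-5.21), *CG41378* (-6.08), and *mgn00204* (fitted -7.58). For *CG5568* and *mgn00204*, B2 has 0 counts, and the fitted values are no bounds. Each clone is 1 line, so the lesion and the clone cannot be told apart in these differences.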

How the results depend on the processing

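The count of genes called in sense reads was 41. It was 1 without the replicate block, 124 with no filter beyond 1 count, 27 with a CPM of at least 5, 229 when only the B2 and S2 libraries were fitted with the block, and 73 in DESeq2 (56 higher and 17 lower in B2), and it was 41 with library size alone. Of the 41 genes, 1 remained without the block, 38 with library size alone, 37 in DESeq2, 27 with a CPM of at least 5, and all 41 with no filter or in the fit of the B2 and S2 libraries, and none changed sign in any of these alternatives or without any 1 library. Those not called in DESeq2 were *CG4174*, *CG13380*, *nAcRalpha-34E*, and *mgn00487*. Leaving out 1 library gave 0 to 79 calls. The antisense count of 47 was 0 without the block, 31 with library size alone, 31 with at least 20 antisense counts, and 28 in DESeq2 (18 higher and 10 lower), and 15 to 377 without 1 library. The 380 genes that differed from the mean of G3 and A7 became 20 without the block and 13 to 406 without 1 library. The highest window median, 0.52, was 0.61 with 21 genes and 0.42 with library size alone, both on 2R at *Uhg1*, and at other places 0.23 with 61 genes (3L) and 0.43 in series 2 alone (2L). The lowest, -0.43, was -0.53 in the same window with library size alone. Elsewhere on 2L it was -0.48 with 21 genes, -0.30 with 61 genes, and -0.51 in series 2 alone. In series 1 alone the lowest window was on 2R, at -0.43. The cause of these shifts was not tested. The block leaves 3 residual degrees of freedom, so p-values rest on few libraries.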
